A study of Mus musculus with 18 samples.

Results

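The WNT genes described here are the ligands, frizzled and LRP receptors, secreted antagonists, cytoplasmic components and TCF/LEF factors of the WNT pathway, selected by probe name on a mouse bead array. A probe was taken when its gene name began with WNT, FZD, SFRP or DKK followed by a digit, or was LEF1, TCF7, TCF7L1, TCF7L2, AXIN1, AXIN2, LRP5, LRP6, CTNNB1, APC, GSK3B, DVL1, DVL2, DVL3, WIF1 or FRZB. A detection p under 0.05 was also required, on 3 or more arrays out of 18. Of 96 such probes with 52 gene names, 53 probes of 33 genes passed, against 22987 of 45281 probes and 16446 gene names on the whole array. The 33 genes comprised 7 ligands, 11 receptors, 5 antagonists, 7 cytoplasmic effectors and 3 nuclear effectors. Passing was uneven among the subfamilies: 7 of 19 WNT names and 1 of 4 DKK names passed, against 9 of 10 FZD names. Among the 43 probes that did not pass, 30 were detected on no array, and 3 were detected on 2 arrays, just below the limit. Another 2 probes passed on exactly 3 arrays.

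Gene expression was measured at day 3 in 6 groups of 3 arrays. Murine embryonic stem (ES) cells, a line carrying an EGFP gene knocked in at the tau locus, were grown in serum-free medium on PA6 cells, a mouse bone marrow stromal line with preadipocyte character, and are called ES/PA6 co-cultures. PA6 cells alone, kept the same way, are called PA6 mono-cultures. Each culture type received no growth factor (-GFs), 20 ng/ml recombinant FGF2 or 10 ng/ml recombinant BMP4. These doses are those of the labels, and the methods of the study name a lower BMP4 dose for such co-cultures. All groups therefore contain PA6 cells, and the co-culture RNA is a mixture of both cell types that was not sorted. The labels describe each biological replicate as a set of wells, one per condition. They do not say whether the ES cells came from separate thaws or clones, so p-values measure only the spread between these cultures. The study asked which genes accompany endothelial differentiation driven by FGF2 or BMP4.

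In the canonical branch of the pathway, a WNT protein binds a frizzled receptor together with LRP5 or LRP6. Dishevelled is then recruited, and the destruction complex of AXIN, APC and GSK3B stops degrading beta-catenin (CTNNB1). Beta-catenin enters the nucleus and acts with the TCF/LEF factors, and AXIN2 and LEF1 are themselves widely used target genes. SFRP proteins, FRZB and WIF1 bind WNT proteins outside the cell, while DKK proteins mostly act at the LRP receptors. WNT5A and WNT5B are best known for signalling that does not need beta-catenin.

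The sequences upstream of the genes that moved are shown for the 3 genes around which the co-culture results turn: LEF1 and FZD7, which fell with FGF2, and WNT6, which rose with BMP4. They were chosen after the values were seen. They are RefSeq promoters on GRCm38.p6, all on the plus strand, each with 250 bases before and 50 bases after the annotated start, written 5′ to 3′. Capitals mark matches on either strand to the TCF/LEF core, CTTTGA or CTTTGT (read as TCAAAG or ACAAAG on the other strand), or to the BMP-SMAD element GGCGCC. The 2 motifs share no overlapping match here.
LEF1, first start, chr3:131110047-131110346: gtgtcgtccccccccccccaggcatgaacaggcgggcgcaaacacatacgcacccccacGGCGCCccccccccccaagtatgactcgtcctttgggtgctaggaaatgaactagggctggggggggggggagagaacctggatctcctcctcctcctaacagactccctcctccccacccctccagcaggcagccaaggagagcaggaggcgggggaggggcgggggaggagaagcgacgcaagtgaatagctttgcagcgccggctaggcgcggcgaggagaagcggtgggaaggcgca
LEF1, a later start, chr3:131156044-131156343: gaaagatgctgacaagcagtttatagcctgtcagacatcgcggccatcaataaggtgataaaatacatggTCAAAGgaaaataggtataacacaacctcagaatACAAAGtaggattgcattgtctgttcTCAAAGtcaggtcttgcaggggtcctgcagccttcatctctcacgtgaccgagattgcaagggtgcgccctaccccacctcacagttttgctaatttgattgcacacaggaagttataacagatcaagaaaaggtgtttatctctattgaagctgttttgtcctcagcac
FZD7, chr1:59481897-59482196: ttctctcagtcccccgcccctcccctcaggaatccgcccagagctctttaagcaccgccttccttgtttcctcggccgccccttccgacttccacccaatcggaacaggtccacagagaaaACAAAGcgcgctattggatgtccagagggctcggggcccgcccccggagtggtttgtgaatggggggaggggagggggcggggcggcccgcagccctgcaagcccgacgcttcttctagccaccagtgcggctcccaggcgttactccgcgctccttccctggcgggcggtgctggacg
WNT6, chr1:74771642-74771941: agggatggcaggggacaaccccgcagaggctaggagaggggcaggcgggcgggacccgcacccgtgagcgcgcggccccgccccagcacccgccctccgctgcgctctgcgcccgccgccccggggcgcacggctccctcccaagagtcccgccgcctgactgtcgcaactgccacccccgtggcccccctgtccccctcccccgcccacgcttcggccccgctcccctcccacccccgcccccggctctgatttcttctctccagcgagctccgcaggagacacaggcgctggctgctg
The first LEF1 window held 1 GGCGCC, 191 bases upstream of its start, and the later LEF1 window held 3 TCF/LEF cores, 180, 146 and 120 bases upstream. The later window was picked because it held the most TCF/LEF cores of the LEF1 windows. Each of the other LEF1 windows, including those not shown, held 0 of them. The FZD7 window held 1 TCF/LEF core, 129 bases upstream, and the WNT6 window held neither motif. Of the 33 genes, 20 had promoters in the RefSeq table, 28 windows in all. A TCF/LEF core stood in 7 of the 28 windows (25.0%), against 31.2% of 32851 mouse promoters of the same length, and GGCGCC stood in 11 (39.3%), against 11.9%. Counted by gene, since some genes have several windows, a TCF/LEF core stood with 7 of 20 (35.0%), against 34.5% of all genes, and GGCGCC with 9 of 20, against 13.4%. These matches are descriptions of the letters, not sites.

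The culture labels were checked against marker genes. All 10 pluripotency markers were higher in the co-cultures than in the mono-cultures without growth factors, and their summed linear intensity ran from 78993 to 129494 with ES cells present and from 459 to 615 in PA6 cells alone. Among the 12 stromal and adipocyte markers, 10 were lower in the co-cultures, with sums of 52852 to 100489 against 144594 to 196961. The co-culture arrays had 19365 to 20412 probes detected and the mono-culture arrays 17125 to 18391. Of the endothelial markers, CDH5 (VE-cadherin) was detected on 4 of the 9 co-culture arrays and on 1 mono-culture array, and the sum of the 6 measured was 1174 to 2953 with ES cells and 494 to 772 without.

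**Figure D1:**
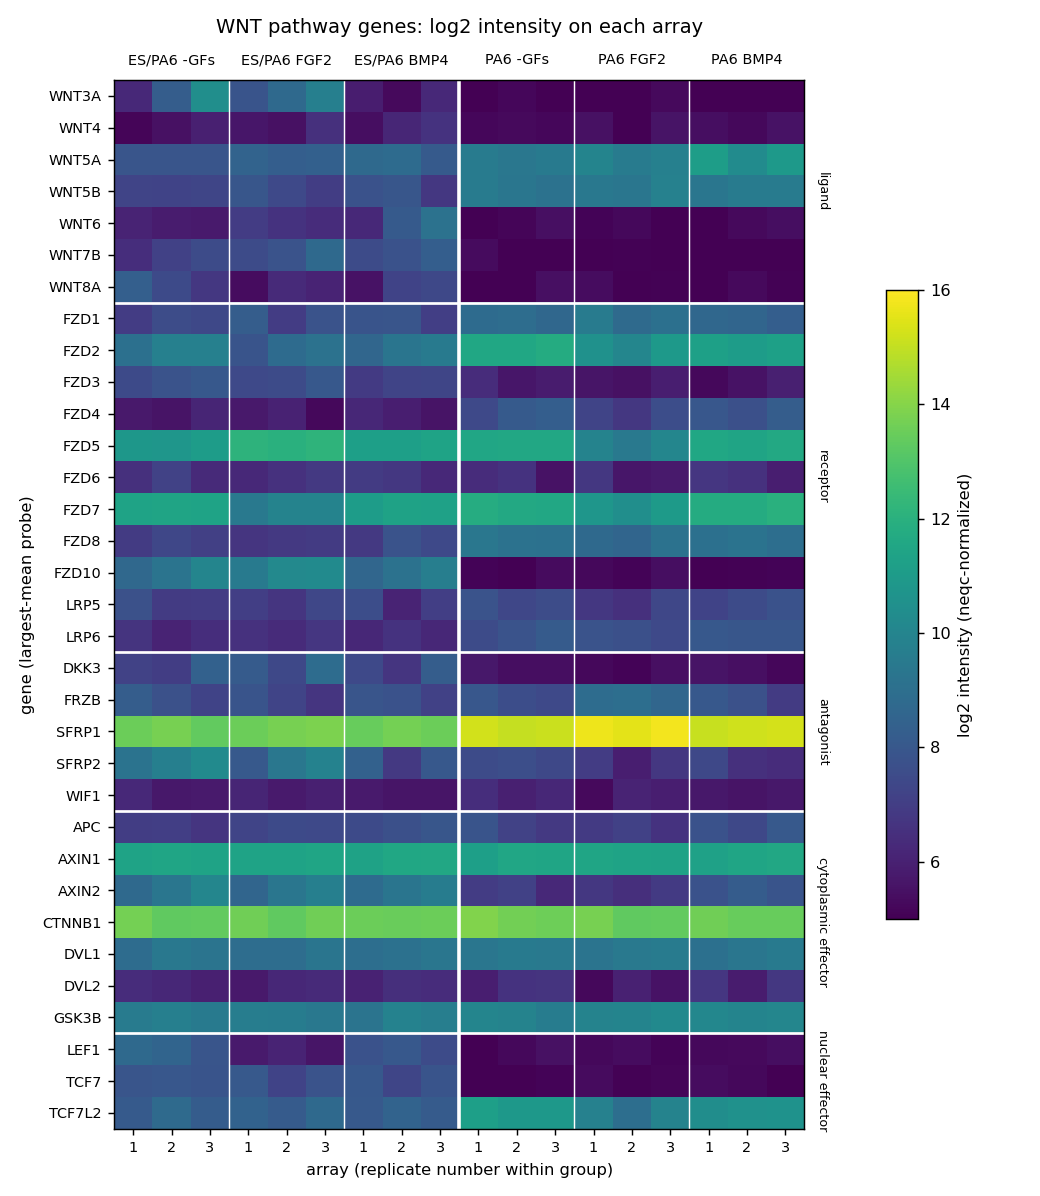
Normalized log2 intensity of each of the 33 WNT genes (rows, the largest-mean probe per gene, grouped by role) on each of the 18 arrays (columns, 3 replicates per group); the colour scale runs from 5 to 16. Among the genes dark on the mono-culture arrays are the 9 that no mono-culture array detected, WNT3A, WNT4, WNT6, WNT7B, WNT8A, FZD10, DKK3, LEF1 and TCF7.

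A gene was called changed at an adjusted p below 0.1 in a limma fit of all 16446 genes together with a log2 fold change above 1 in size. With FGF2 in the co-cultures, 4 of the 33 genes were called, FZD5 higher and WNT8A, FZD7 and LEF1 lower, where 3.34% of all genes were called. BMP4 in the co-cultures called 2 genes, WNT6 higher and SFRP2 lower (all genes, 0.76%). In the PA6 mono-cultures, FGF2 called 4 genes, FRZB higher and FZD2, FZD5 and TCF7L2 lower (all genes, 5.27%), and BMP4 called 2 genes, WNT5A and AXIN2, both higher (all genes, 1.41%). The median log2 change over the 33 genes lay between -0.10 and 0.01 in the 4 comparisons, and that over all genes between -0.01 and 0.01. FZD5 was the only member called with the same factor in both culture types, and it moved in opposite directions. The FGF2 and BMP4 changes of a culture type share their 3 -GFs arrays. In mixed RNA, fewer cells of a type and less RNA per cell cannot be told apart.

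**Figure D2:**
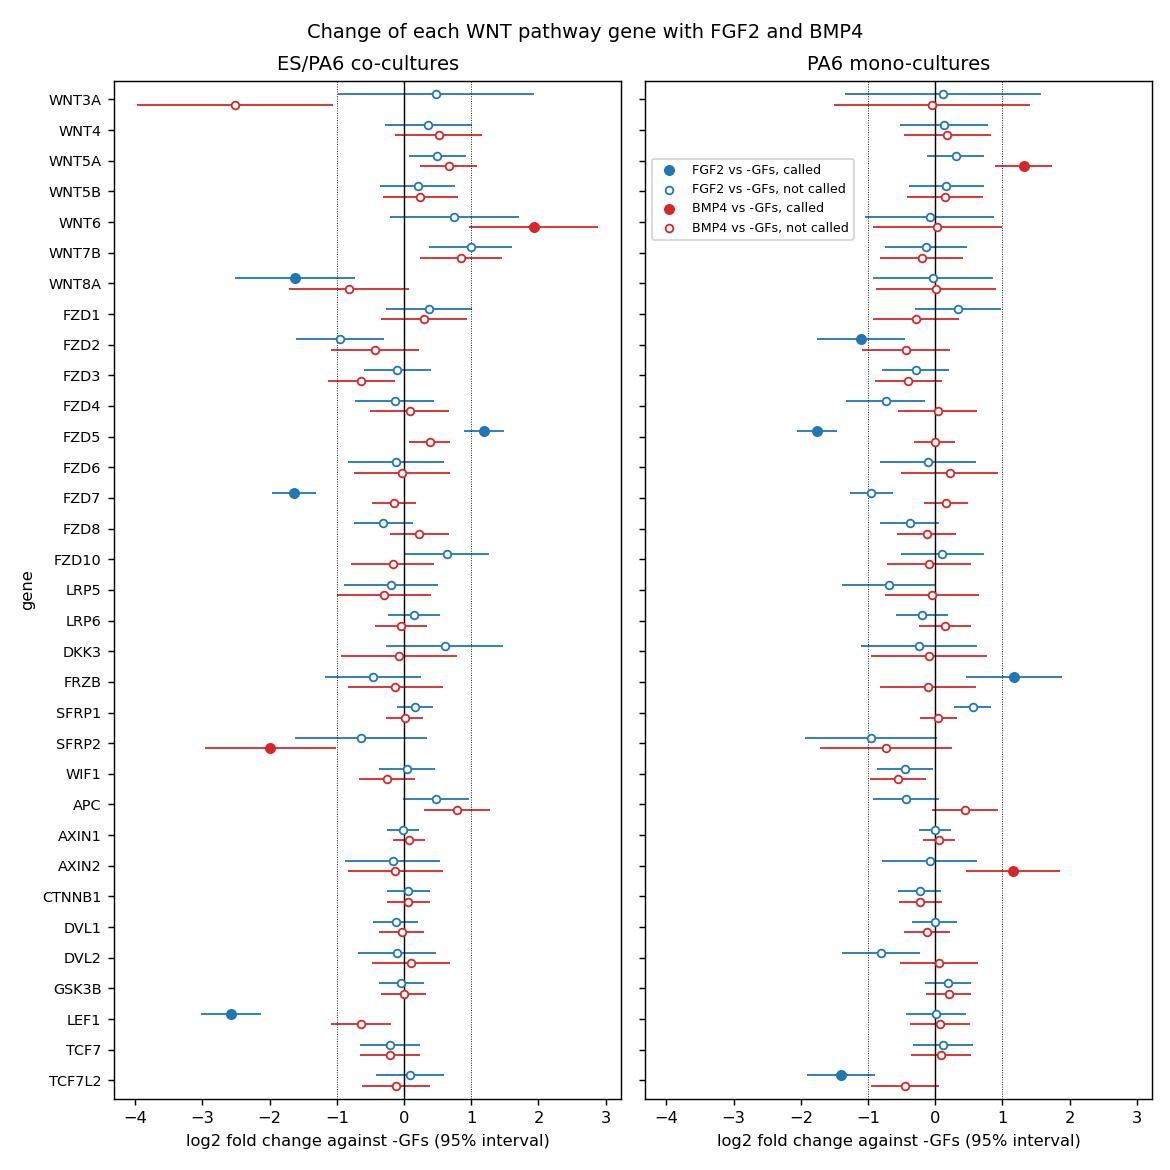
Log2 fold change against -GFs for each of the 33 genes (rows) with FGF2 (blue) and BMP4 (red), in the ES/PA6 co-cultures (left) and the PA6 mono-cultures (right); bars are 95% intervals from the limma fit over 18 arrays, filled points were called and open points were not. Dotted lines mark a log2 change of 1 in either direction; LEF1 at -2.57 is the farthest filled point.

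Among the ligands, WNT6 rose with BMP4 in the co-cultures. Its log2 intensity was 6.08, 5.86 and 5.78 on the -GFs arrays, 6.25, 8.12 and 9.13 with BMP4 and 6.94, 6.63 and 6.39 with FGF2. The BMP4 arrays all lay above the -GFs arrays, but the first of them by little. The log2 change with BMP4 was 1.93 (95% interval 0.97 to 2.89, adjusted p = 0.0641), and within the 3 same-numbered sets of wells it was 0.17, 2.27 and 3.35. Leaving out -GFs replicate 2 or 3, or BMP4 replicate 2 or 3, ended the call, as did a fit of the co-culture arrays alone, and adjusted p lay between 0.000157 and 0.355 over all alternatives. Of its 3 detected probes, ILMN_2901765 was at least 3.23-fold higher with BMP4, being undetected without growth factors. That probe passed the detection filter only through the FGF2 and BMP4 co-cultures, where it was higher, so it adds no separate support. ILMN_2491759 gave 0.10, with group means between 5.55 and 5.94 throughout. No WNT6 probe was detected on a mono-culture array. The change with FGF2 in the co-cultures was 0.75 and was not called (adjusted p = 0.445). Markers of surface ectoderm moved with the BMP4 cultures: 5 of 6 measured ones were called higher, and their summed linear intensity was 7203 to 12194, against 2790 to 5060 without growth factors, lowest on the same BMP4 array as WNT6. With FGF2 that sum was 7266 to 7570. Their part in the WNT6 result was not tested.

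WNT3A, a canonical ligand of the primitive streak and tail bud, had an SD of 2.07 over the 3 co-cultures without growth factors, the largest of any member in any group. It measured 6.28, 8.26 and 10.42 without growth factors, 7.87, 8.77 and 9.73 with FGF2 and 5.87, 5.28 and 6.26 with BMP4. The BMP4 arrays lay below the other 6, the highest of them only just, and 1 of the 3 detected the probe. FGF2 exceeded BMP4 by 2.99 (1.53 to 4.44, adjusted p = 0.0178). That fit pools the spread with the mono-culture groups, where the probe was undetected and had SDs of 0.09 to 0.23. In a fit of the co-culture arrays alone the call was lost (adjusted p = 0.142). For FGF2 against BMP4 in the co-cultures, the fit of all arrays called 3 of the 33 genes, against 2.85% of all genes. WNT3A was higher and FZD7 and LEF1 lower with FGF2. Against -GFs, the BMP4 change of WNT3A was -2.52 (adjusted p = 0.11). With the replicate set as a block it was called (adjusted p = 0.0141), and within sets it was -0.41, -2.97 and -4.17. The summed intensity of 3 neural markers took the same order over the -GFs arrays, 320, 1277 and 2411. It was 183 to 344 with BMP4, where ZIC1, an early neural transcription factor, was detected on 0 of 3 arrays. Their part in the WNT3A result was not tested.

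WNT8A fell with FGF2 in the co-cultures, from 8.35, 7.47 and 6.79 to 5.38, 6.29 and 6.08. The groups did not overlap, and 2 of the FGF2 arrays still detected it. The change was -1.62 (-2.52 to -0.72, adjusted p = 0.0298), and its second probe, ILMN_2485197, gave -1.69. It was no longer called when -GFs replicate 1 or FGF2 replicate 1 was left out, nor in a fit of the co-culture arrays alone (adjusted p = 0.158), and within sets it was -2.97, -1.19 and -0.71. With BMP4 the arrays read 5.55, 7.22 and 7.38, and the change of -0.82 was not called.

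WNT5A is made by stromal cells in many tissues, and here it rose with BMP4 in the PA6 mono-cultures. It measured 9.57, 9.37 and 9.50 without growth factors, 9.98, 9.58 and 9.80 with FGF2 and 11.12, 10.32 and 10.95 with BMP4. Every BMP4 array lay above every other mono-culture array. The BMP4 change was 1.32 (0.89 to 1.74, adjusted p = 0.00177), and it was called for each of the 3 probes. The dimmest, ILMN_1245294, was undetected without growth factors and at least 1.47-fold higher with BMP4. That probe passed the detection filter only through the 3 BMP4 mono-culture arrays, so its rise is no separate support. In the co-cultures WNT5A went from 7.88, 7.91 and 7.92 to 8.75, 8.84 and 8.12 with BMP4, a change of 0.67 that was not called (adjusted p = 0.154). FGF2 lay 1.01 below BMP4 in the mono-cultures (adjusted p = 0.00223), a value that dropped under the fold threshold without FGF2 replicate 2 or without BMP4 replicate 1 or 3. In the comparison of FGF2 with BMP4 in the mono-cultures, 5 of the 33 genes were called, FRZB higher and WNT5A, FZD5, FZD7 and AXIN2 lower with FGF2, against 5.82% of all genes.

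WNT7B was detected on all 9 co-culture arrays and on no mono-culture array. It measured 6.44, 7.11 and 7.50 without growth factors, 7.49, 7.80 and 8.74 with FGF2 and 7.52, 7.79 and 8.28 with BMP4. Each set of wells was higher with either factor, by 0.69 to 1.24 with FGF2 and by 0.68 to 1.08 with BMP4. The FGF2 change was 0.99 (adjusted p = 0.0539), just under the fold threshold, and the BMP4 change 0.85 (adjusted p = 0.236). WNT4 was near the detection limit, with 4 co-culture arrays detected, and its means were 5.54 without growth factors, 5.91 with FGF2 and 6.06 with BMP4. WNT5B was not called for either factor in either culture type, with changes of 0.15 to 0.24. WNT3 and WNT10A were not among the 33 genes, being detected on 2 and 1 arrays.

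**Figure D3:**
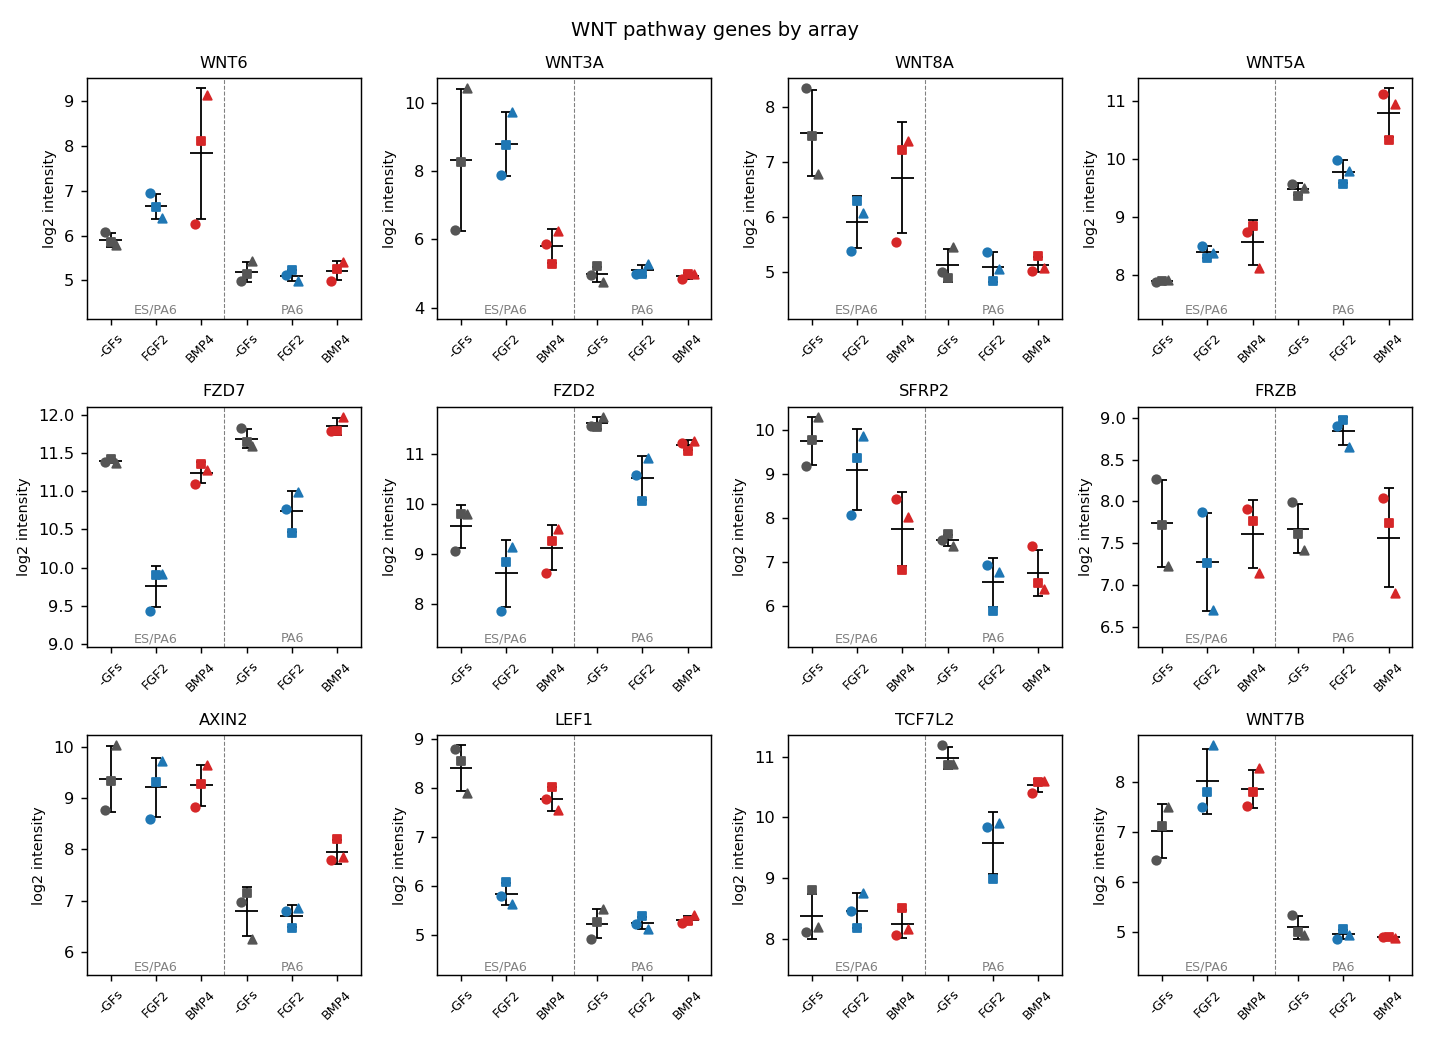
Log2 intensity of 12 WNT genes on every array; circles, squares and triangles are replicates 1, 2 and 3, horizontal bars are group means and error bars are 1 SD (n = 3), with co-cultures left of the dashed line and mono-cultures right of it. WNT6 spreads from 6.25 to 9.13 over the co-cultures with BMP4, and LEF1 lies at 5.62 to 6.08 in those with FGF2.

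Among the receptors, FZD7, a frizzled prominent in pluripotent cells, fell with FGF2 in both culture types. In the co-cultures it measured 11.38, 11.43 and 11.37 without growth factors, 9.44, 9.90 and 9.92 with FGF2 and 11.09, 11.36 and 11.28 with BMP4. The FGF2 arrays stood well apart from the other 6. The change was -1.64 (-1.96 to -1.32, adjusted p = 7.25e-06), and the difference between FGF2 and BMP4 was -1.49 (adjusted p = 3.81e-05). In the mono-cultures FZD7 went from 11.82, 11.65 and 11.59 to 10.76, 10.45 and 10.99 with FGF2, again without overlap. That change was -0.95 (-1.27 to -0.63, adjusted p = 0.000433), under the fold threshold. Against BMP4 (11.78, 11.79 and 11.98) it was -1.11 (adjusted p = 8.48e-05) and called, and it went under the fold threshold, at -0.97, without FGF2 replicate 2. The FGF2 effects in the 2 culture types differed by -0.69 (adjusted p = 0.0541), also under the fold threshold. The pluripotency sum was 112967 to 129494 with FGF2 and 78993 to 105416 without growth factors in the co-cultures, and its part in the FZD7 fall was not tested.

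FZD5 rose with FGF2 in the co-cultures and fell with it in the mono-cultures. The co-cultures measured 10.82, 10.78 and 11.08 without growth factors, 12.09, 12.00 and 12.16 with FGF2 and 11.23, 11.22 and 11.38 with BMP4. The change with FGF2 was 1.19 (0.89 to 1.49, adjusted p = 9.5e-05), within 1.08 to 1.27 in every set. The mono-cultures went from 11.49, 11.59 and 11.58 to 9.91, 9.43 and 10.04 with FGF2, a change of -1.76 (-2.06 to -1.45, adjusted p = 6e-07). With BMP4 they stayed between 11.43 and 11.65, and FGF2 lay 1.75 below BMP4. The probes did not share the mono-culture fall: ILMN_3161263 gave these values, while ILMN_2591703 and ILMN_1223759 gave -0.31 and -0.23, neither called. All 3 probes gave the co-culture rise, at 1.12 to 1.28. With the mean of the 3 probes, the mono-culture change was -0.76 and no longer passed the fold threshold. ILMN_1223759 was near background in the mono-cultures, with group means of 5.16 to 5.47. ILMN_2591703 was also dim there, with means of 6.88 without growth factors and 6.57 with FGF2, where 2 of 3 arrays detected it. Without growth factors it was higher in the co-cultures, at 8.19, than in the mono-cultures. ILMN_3161263 was lower in the co-cultures, at 10.90 against 11.55.

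**Figure D4:**
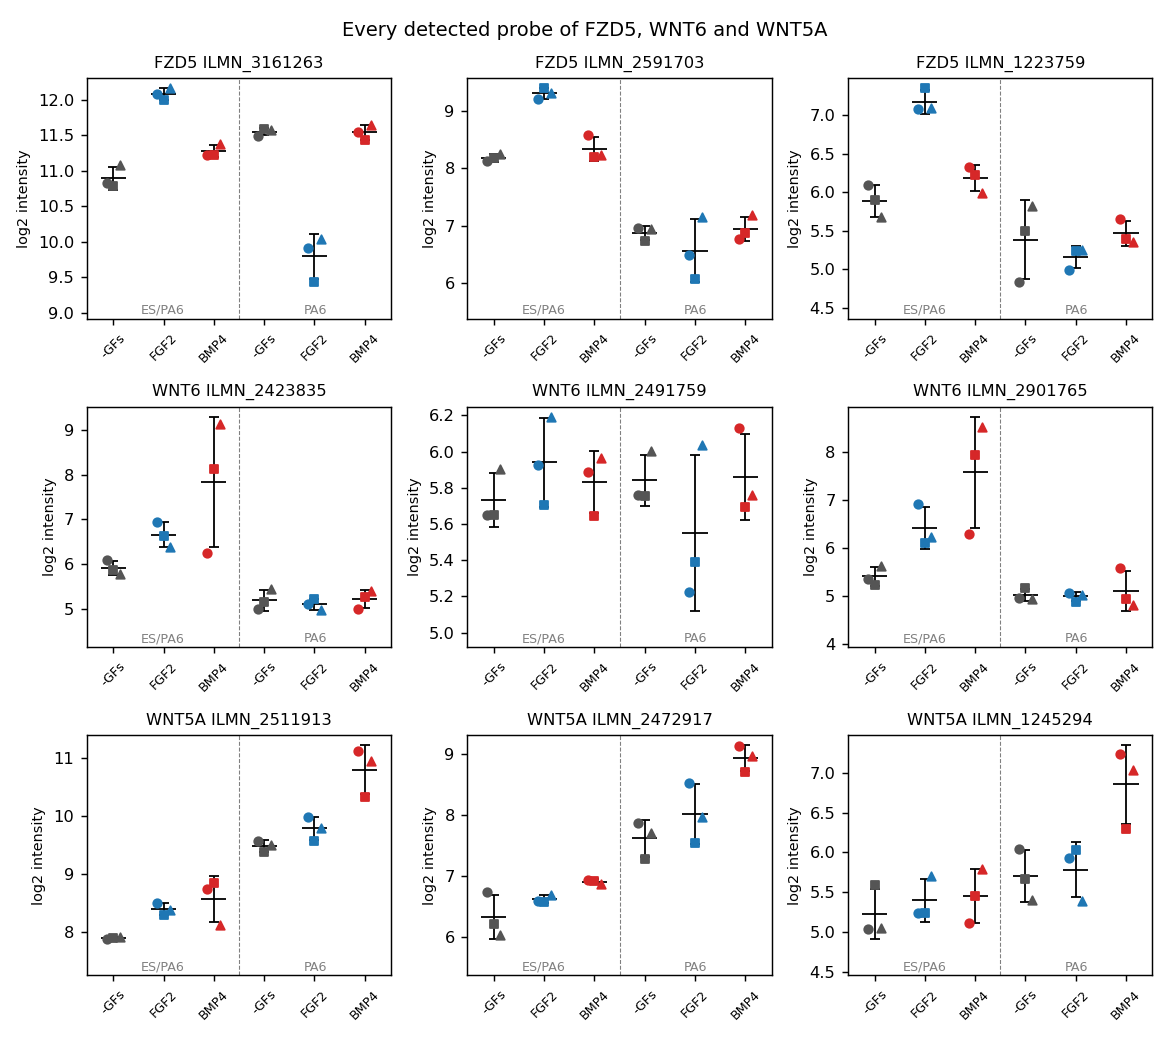
Log2 intensity of every detected probe of FZD5 (top), WNT6 (middle) and WNT5A (bottom) on each array; symbols, bars and the dashed line are as in the plot of 12 genes, and each panel has its own axis range. The first FZD5 probe falls to a mean of 9.79 in mono-cultures with FGF2 where the second reads 6.57 against 6.88 without growth factors, and the second WNT6 probe stays between means of 5.55 and 5.94.

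FZD2 fell with FGF2 in the mono-cultures, from 11.57, 11.54 and 11.75 to 10.58, 10.06 and 10.92. The change was -1.10 (-1.75 to -0.44, adjusted p = 0.024), which did not pass without FGF2 replicate 2. In the co-cultures FZD2 went from 9.05, 9.80 and 9.80 to 7.86, 8.83 and 9.13. Each set fell, by 0.67 to 1.20, but the groups overlapped and the change of -0.95 (adjusted p = 0.0881) was under the fold threshold. FZD4 was detected on 3 of 9 co-culture arrays and on all mono-culture arrays. Its changes in the co-cultures were -0.14 with FGF2 and 0.09 with BMP4. In the mono-cultures it went from 7.42, 8.10 and 8.30 to 7.24, 6.77 and 7.61 with FGF2, a change of -0.74 under the fold threshold (adjusted p = 0.0943). Its second probe, ILMN_1212935, was at least 2.04-fold lower with FGF2, detected on 0 of 3 FGF2 arrays. That probe passed the detection filter only through the -GFs and BMP4 mono-cultures, where it was higher, so it adds no separate support. The co-receptors LRP5 and LRP6 and the receptor FZD6 were not called with any factor. LRP6 had changes of 0.15 with FGF2 and -0.04 with BMP4 in the co-cultures, and FZD6 of -0.12 and -0.03. LRP5 had -0.19 and -0.29. In the mono-cultures with FGF2, the second FZD6 probe was not detected and was not called. The other 4 receptors, FZD1, FZD3, FZD8 and FZD10, had changes between -0.64 and 0.64 in the 4 comparisons with -GFs.

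Among the secreted antagonists, SFRP2 fell with BMP4 in the co-cultures, from 9.18, 9.77 and 10.28 to 8.42, 6.82 and 8.02. The groups did not overlap, and FGF2 (8.08, 9.36 and 9.86) overlapped both. The BMP4 change was -1.99 (-2.97 to -1.01, adjusted p = 0.0616), lost without -GFs replicate 2 or 3 or BMP4 replicate 2 and in a fit of the co-culture arrays alone. FGF2 lay 1.34 above BMP4 (adjusted p = 0.12), which was called with the replicate set as a block (adjusted p = 0.0685). The neural marker sum of 183 to 344 with BMP4 against 320 to 2411 without growth factors stands beside this change too, and its part was not tested.

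FRZB rose with FGF2 in the mono-cultures, from 7.99, 7.60 and 7.42 to 8.90, 8.97 and 8.65. The FGF2 arrays lay above all other mono-culture arrays, and BMP4 gave 8.04, 7.74 and 6.90. The FGF2 change was 1.17 (0.46 to 1.88, adjusted p = 0.0267), and FGF2 exceeded BMP4 by 1.28 (adjusted p = 0.0158), or by 0.95, under the fold threshold, without BMP4 replicate 3. In the co-cultures every set moved the other way with FGF2, from 8.26, 7.72 and 7.22 to 7.87, 7.27 and 6.70, a change of -0.46 that was not called. SFRP1 rose by 0.56 with FGF2 in the mono-cultures (adjusted p = 0.00727), under the fold threshold, and its second probe gave 0.98. DKK3 and WIF1 were not called with either factor. DKK3 had changes of 0.60 with FGF2 and -0.07 with BMP4 in the co-cultures, and WIF1 was detected on 3 co-culture arrays and 1 mono-culture array.

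Among the cytoplasmic components, AXIN2, a negative feedback target of beta-catenin, rose with BMP4 in the mono-cultures. It measured 6.97, 7.14 and 6.25 without growth factors, 6.79, 6.47 and 6.86 with FGF2 and 7.79, 8.21 and 7.84 with BMP4. The BMP4 arrays lay above the other 6. The change was 1.16 (0.45 to 1.86, adjusted p = 0.088), and leaving out any one of the 6 arrays compared ended the call. Its adjusted p ran from 0.00601 to 0.318 over all alternatives. Against BMP4, FGF2 gave -1.24 (adjusted p = 0.0182), a call kept when any one of the FGF2 and BMP4 arrays was left out. In the co-cultures AXIN2 measured 8.76, 9.34 and 10.03 without growth factors, 8.59, 9.31 and 9.73 with FGF2 and 8.83, 9.27 and 9.64 with BMP4. Those 3 groups overlapped almost fully, with changes of -0.17 and -0.13. CTNNB1, the transducer itself, had group means between 13.45 and 13.71, with changes between -0.23 and 0.06, and neither of its other probes was called. At their largest-mean probes, AXIN1, DVL1 and GSK3B had changes against -GFs between -0.13 and 0.20. The dimmer DVL1 probe, ILMN_1215208, had co-culture means of 6.42 without growth factors, 5.77 with FGF2 and 5.88 with BMP4. Its mono-culture means were 6.52, 6.58 and 6.23 in that order. The dimmer AXIN1 probe had 6.58, 6.87 and 6.87 in the co-cultures and 7.51, 7.30 and 7.54 in the mono-cultures. DVL2 was detected on none of the FGF2 mono-cultures, at least 1.11-fold lower than without growth factors, and was not called (adjusted p = 0.06). APC had 0.79 with BMP4 in the co-cultures (adjusted p = 0.145) without overlap, from 7.01, 7.04 and 6.70 to 7.48, 7.69 and 7.93.

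Among the nuclear effectors, LEF1 fell with FGF2 in the co-cultures by more than any other member. It measured 8.78, 8.54 and 7.88 without growth factors, 5.79, 6.08 and 5.62 with FGF2 and 7.76, 8.01 and 7.53 with BMP4. With FGF2 the probe was detected on 1 of 3 arrays, and on no mono-culture array. The change was -2.57 (-3.02 to -2.12, adjusted p = 1.79e-06), and every set fell, by 2.26 to 2.99. FGF2 lay 1.94 below BMP4 (adjusted p = 5.84e-05). These 2 calls held under all alternatives, between -2.83 and -1.54 and between -2.06 and -1.06. Within the co-cultures, 3 pluripotency markers (NANOG, ZFP42 and ESRRB) were called higher with FGF2 and 1, LIN28, lower at -1.63. Their part in the LEF1 result was not tested.

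TCF7L2, a TCF factor abundant in mesenchymal cells, fell with FGF2 in the mono-cultures, from 11.19, 10.87 and 10.89 to 9.84, 8.99 and 9.91. BMP4 gave 10.40, 10.58 and 10.60, between the 2 groups. The FGF2 change was -1.40 (-1.91 to -0.90, adjusted p = 0.000686), and its second probe gave -1.30. In the co-cultures TCF7L2 measured 8.12, 8.80 and 8.19 without growth factors and 8.46, 8.18 and 8.75 with FGF2, a change of 0.09. TCF7 was not called with either factor, at -0.21 with each in the co-cultures. In the mono-cultures FGF2 called 3 of the 12 stromal and adipocyte markers lower and 0 higher (25%, against 5.27% of all genes). Of the adipocyte genes ADIPOQ, LPL, CFD and PPARG on that list, the first 3 had log2 changes of -4.65, -2.75 and -4.79. The change of PPARG is not given here, and the median over the 12 markers was -0.48. The sum of the 12 markers was 144594 to 174771 with FGF2, against 155037 to 159674 without growth factors. The part of adipocyte genes in the TCF7L2, FZD2, FZD5 and FRZB results was not tested.

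The effect of FGF2 differed between the culture types for 5 of the 33 genes, against 7.39% of all genes. The difference, co-culture effect minus mono-culture effect, was 2.95 for FZD5 (2.52 to 3.38, adjusted p = 4.64e-07), 1.49 for TCF7L2 (adjusted p = 0.00989) and 1.13 for WNT7B (adjusted p = 0.0972). It was -2.58 for LEF1 (-3.21 to -1.95, adjusted p = 5.02e-05) and -1.63 for FRZB (adjusted p = 0.0388). Over the 3 FZD5 probes it ran from 1.43 to 2.95. LEF1 and WNT7B were not detected in the mono-cultures, so that their difference there is one between background readings. For BMP4, limma called no difference between culture types among the 33 genes, against 0.559% of all genes. In that fit 6 of the 33 had an unadjusted p under 0.05, among them WNT6 at 1.90 (adjusted p = 0.279). All genes were not counted at the unadjusted cut, so the 6 have no share to stand against. With the replicate set as a block, 3 were called, AXIN2 at -1.29 (adjusted p = 0.0397), WNT3A at -2.47 (adjusted p = 0.0921) and WNT7B at 1.05 (adjusted p = 0.0221). The share of all genes called with the block is not given here, so these 3 calls are a description. WNT3A, WNT6 and WNT7B were undetected in the mono-cultures.

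Without growth factors, co-cultures and mono-cultures differed in 19 of the 33 genes, where 39% of all genes were called. The co-cultures had the higher level for 10 of them (all genes, 19.4%) and the lower level for 9 (all genes, 19.5%). Because 9 of the 33 passed detection through co-culture arrays alone, these counts are a description. Higher in the co-cultures were the receptor FZD10 (means 9.34 against 5.14, at least 8.22-fold), WNT3A (8.32 against 4.97, at least 4.06-fold) and WNT8A (7.54 against 5.12, at least 2.36-fold). LEF1 (8.40 against 5.23) was at least 4.30-fold and TCF7 (7.93 against 5.05) at least 3.09-fold higher. DKK3 (7.54 against 5.51) was at least 2.36-fold higher and WNT7B (7.02 against 5.09) at least 1.65-fold. These bounds apply because none of the 3 mono-culture arrays detected the gene. AXIN2 was higher by 2.59 on the log2 scale (SE 0.33, adjusted p = 3.56e-06), SFRP2 by 2.24 (SE 0.46, adjusted p = 0.000422) and FZD3 by 1.79 (SE 0.24).

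Lower in the co-cultures was TCF7L2, at -2.61 (SE 0.24, adjusted p = 7.37e-08), from 11.19, 10.87 and 10.89 in the mono-cultures to 8.12, 8.80 and 8.19. FZD4 was at -2.12, FZD8 and WNT5B each at -2.09 and FZD2 at -2.07. SFRP1 was at -1.60, WNT5A at -1.57, FZD1 at -1.51 and LRP6 at -1.43. For each of these 9 genes the groups did not overlap, but the 9 were picked as called, and overlap was not counted over all genes. By role, 5 of the 11 receptors were lower and 2 higher, while 3 of the 7 ligands were higher and 2 lower (all genes, 19.4% higher and 19.5% lower). Of the 7 cytoplasmic effectors, AXIN2 alone was called (all genes, 39%). All 3 nuclear effectors were called, LEF1 and TCF7 in the direction of the pluripotency markers and TCF7L2 in that of the stromal markers. The 3 higher ligands, FZD10, LEF1 and TCF7 passed detection through co-culture arrays alone, so the counts by role are a description.

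Of 77 other genes of the pathway listed by role, 58 were measured. FGF2 in the co-cultures called 1 of them (1.72% of the 58, against 3.34% of all genes). This was RSPO2, a secreted agonist that amplifies WNT signals, at -1.03 (adjusted p = 0.0233). It measured 6.68, 6.96 and 6.91 without growth factors and 5.77, 5.13 and 6.56 with FGF2. BMP4 in the co-cultures called none by limma (all genes, 0.76%). In that fit 14 had an unadjusted p under 0.05, a cut at which all genes were not counted. FGF2 in the mono-cultures called 3 higher (ROR1, WISP2 and JUN) and 4 lower (TNKS, PRICKLE1, DAAM1 and DAAM2), 12.1% of the 58 against 5.27% of all genes. There ROR1, a receptor for WNT5A, was at 1.20 (adjusted p = 0.000236). BMP4 in the mono-cultures called ID2 higher at 1.85, and JUN lower at -1.65 (3.45% of the 58, against 1.41% of all genes). ID2 is also a direct BMP target. Between culture types without growth factors, 15 were higher in the co-cultures and 15 lower, 51.7% against 39% of all genes. The 13 measured target genes of the pathway, other than the members, had a median log2 change of 0.16 with FGF2 and 0.10 with BMP4 in the co-cultures, none called by limma. At an unadjusted p under 0.05 there were 0 with FGF2 and 7 with BMP4. Of the 7, 3 were higher (T, CD44 and TNFRSF19) and 4 lower (NRARP, JUN, ID2 and WISP1), with log2 changes between -1.82 and 1.43. How many of all genes passed that unadjusted p was not counted, so these counts are a description. NOTUM, which inactivates WNT proteins, was at 8.37 to 8.89 in the co-cultures without growth factors and was not detected in the mono-cultures. RSPO2 and RSPO3 were lower in the co-cultures, at -2.62 and -3.09.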

How the data were processed

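Total RNA of 18 cultures was hybridized to Illumina MouseWG-6 v2.0 arrays by the authors. The deposited table holds, per probe and array, a non-normalized fluorescence intensity (55.5 to 72879) and a detection p-value, exported from GenomeStudio per the submitters' processing notes (version 2011.01). The authors then used cubic spline normalization, filtered on detection and tested with limma, while here the intensities were corrected and normalized with neqc (offset 16, which compresses dim values towards background). Stray lines, 5 in number, were left out.

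Probes were kept where the detection p was under 0.05 on 3 or more arrays, and the largest-mean probe stood for a gene. One limma model (version 3.58.1, R 4.3.3) of the 6 group means over 16446 genes gave 9 contrasts, with Benjamini-Hochberg adjustment over all genes, and calls at adjusted p under 0.1 and a log2 change over 1 in size. With 3 arrays per group, their number limits the precision. A gene undetected on all arrays of a group has a bound, the brighter mean over the dimmer group's mean of the lowest detected signal. The fit was tested on simulated data. Figures were drawn with Python 3.11.15.

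Named with their values are members called with a growth factor or in a difference of effects, 9 genes the study measured by PCR, and in the comparison of culture types the 8 largest rises and 8 largest falls; others are named only to complete a count or because they were noticed after their values were seen. The members, lists and tests were chosen with earlier results of these data known. TCF7L1 and DVL3 had no probe among those that passed, and a probe named TCF3 was not used, as that name has stood for more than 1 gene. Other symbols were matched to older array names.

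Same-numbered arrays deviated together in the co-cultures (r = 0.325 to 0.521 over genes in 9 of 9 pairs) and less in the mono-cultures (0.0628 to 0.164, above 0.1 in 8 of 9 pairs). The labels describe one well per condition in each biological replicate, so values with the replicate set as a block are given where they change a call. Alternatives varied the normalization, the filter, the probe rule, the arrays fitted, the block and the thresholds, and left out each array in turn.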

Additional observations from a re-analysis of the deposited data

Results flagged for a closer look

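The FGF2 effect differed between culture types for 5 of the 33 WNT genes, each by a contrast of the 2 effects in the limma fit. The difference, co-culture minus mono-culture on the log2 scale, was 2.95 for FZD5, whose effects were 1.19 and -1.76. The size of the mono-culture fall depended on the probe, and the difference ran from 1.43 to 2.95 over the 3 FZD5 probes. The difference was 1.49 for TCF7L2 (0.09 and -1.40) and -1.63 for FRZB (-0.46 and 1.17). For LEF1 it was -2.58 (-2.57 and 0.01), and for WNT7B 1.13 (0.99 and -0.14), both undetected in the mono-cultures. The differences for FZD5, TCF7L2, FRZB and LEF1 held under all alternatives tried, while that for WNT7B was lost under 4 of 9 alternatives and in 9 of 12 fits that left out 1 array.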

How the results depend on the processing

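No call of a named gene changed direction under any alternative tried. Of 416 values under another setting, 394 kept their call and 22 lost it, and of 294 values with 1 array left out, 264 kept it and 30 lost it. The number of WNT genes called moved with BMP4 in the co-cultures to 0 in a fit of the co-culture arrays alone and to 0 at an adjusted p under 0.05, and with BMP4 in the mono-cultures to 1 with quantile normalization without background correction and to 1 at an adjusted p under 0.05. Without a fold threshold it was 8 with FGF2 in the mono-cultures and 10 for FGF2 against BMP4 there, and 2 for the latter with quantile normalization without background correction. With the replicate block, the difference in BMP4 effect gave 3 genes in place of 0, and the other 8 counts stayed within 1.5 times. For these settings and the fits with 1 array left out, the shares of all genes called are not given here. A count that moved is therefore no result about the WNT genes. With 1 array left out, the counts ranged from 4 to 5 (FGF2, co-cultures), 0 to 3 (BMP4, co-cultures), 4 to 5 (FGF2, mono-cultures), 1 to 1 (BMP4, mono-cultures), 3 to 6 (FGF2 against BMP4, co-cultures), 3 to 7 (FGF2 against BMP4, mono-cultures, lowest without BMP4 replicate 3), 19 to 19 (co-cultures against mono-cultures), 4 to 6 (difference in FGF2 effect) and 0 to 1 (difference in BMP4 effect).

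Quantile normalization without background correction, which compresses dim probes, also took WNT8A (FGF2, co-cultures), AXIN2 (both calls), FRZB (both mono-culture calls) and WNT5A (FGF2 against BMP4) below a threshold, and FZD3 and LRP6 between culture types. WNT3A for FGF2 against BMP4 was lost in a fit of the co-culture arrays alone (adjusted p = 0.142). The mean over all probes of a gene, added after the FZD5 probes were seen to differ, took FZD5 in the mono-cultures to -0.76 with FGF2 and -0.81 against BMP4. Dim genes such as WNT4, WIF1 and FZD6 lie near background, where changes are understated.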

Other observations

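Some family genes outside the 33 were detected on 1 or 2 arrays. WNT3 was detected on 2 arrays, both co-cultures without growth factors, WNT7A on 2, both co-cultures with FGF2, and WNT10A on 1, a co-culture with BMP4. WNT8B was detected on 1 co-culture with FGF2 and 1 with BMP4. The raw intensities of these 4 probes stayed between 85.8 and 297.0, close to background.

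SP5, a direct target of beta-catenin, measured 6.24, 5.98 and 8.85 without growth factors, highest on the array where WNT3A and AXIN2 were also highest. NRARP, listed as a target and also known from Notch signalling, measured 8.80, 9.93 and 10.81 on the same arrays. With BMP4 NRARP was at 7.51, 7.70 and 8.84, and FGF2 exceeded BMP4 by 1.96 (adjusted p = 0.0397). These genes were chosen after their values were seen.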
